A study of Mus musculus with 12 samples.

Results

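The tripartite motif (TRIM) genes were followed in the livers of mice that lack the glucocorticoid receptor (GR) in the liver. Members were all probes of the array, control spots aside, whose gene name in the scanner files, or whose current symbol through the RefSeq accession, begins with Trim and a digit. The rule found 104 probes for 56 genes, of 28781 distinct gene names on the array. The 12 samples were liver RNA of male C57BL/6 mice aged 3 months, every one of them a GR liver knockout per the labels. In 4 samples the mice had received PBS, in 4 an adeno-associated virus (AAV) carrying green fluorescent protein, AAV-GFP, and in 4 the virus carrying human GR beta, AAV-hGRB. GR beta is a splice form of the receptor that does not bind glucocorticoids. The AAV-hGRB and AAV-GFP groups differ in the vector's cargo, and the AAV-GFP and PBS groups differ in the vector together with its GFP cargo. All 3 groups share the knockout, so none of the comparisons measures the loss of GR. The promoter that drives either cargo, the Cre line behind the knockout, the vector dose and the interval from injection to sampling are not stated in the labels.

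TRIM proteins carry a RING finger, 1 or more B-boxes and a coiled coil, in that order, and most are ubiquitin ligases whose far end decides what they bind. Many members that end in a SPRY domain act in antiviral defence and are themselves transcribed when type I interferon activates the transcription factor complex that binds the interferon-stimulated response element. Others act in chromatin, muscle or nerve cells and do not depend on interferon, and in the liver Trim24 is known as a suppressor of tumours in mice. The 56 genes were therefore separated into 11 interferon-responsive genes, from a list written from textbook knowledge, and 45 other genes. The list has 14 genes, and no probe was matched to 3 of them, Trim5, Trim30c and Trim34b.

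The promoters of the interferon-responsive members are shown first, since most hold a motif of the interferon response and since 6 of the members lie side by side. The members were listed for their response to interferon, so the share that holds this motif is not independent of that choice. RefSeq windows of 250 bases before to 50 bases after each annotated start (GRCm38.p6) were available for 35 of the 45 TRIM genes tested below and were searched on both strands for GAAA, 2 bases of any kind and GAAA again, the core of the interferon-stimulated response element. The core was found in 7 of the 10 tested interferon-responsive genes that have a window (70.0%), in 1 of 25 other tested TRIM genes (4.0%), and in 1079 of 27025 genes with a window in the whole table (3.99%). Below, 100 bases of 8 windows are given 5′ to 3′ on the gene's strand, from 70 bases before to 30 bases after the start, or from 180 to 81 bases before the start for Trim26. Capitals mark the core, which reads TTTC, 2 bases and TTTC where it lies on the opposite strand. Trim30b is shown as a neighbour without a match.
Trim30a (chr7:104465164-104465263, minus strand): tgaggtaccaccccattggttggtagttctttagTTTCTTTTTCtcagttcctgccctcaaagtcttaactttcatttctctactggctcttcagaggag
Trim30d (chr7:104507820-104507919, minus strand): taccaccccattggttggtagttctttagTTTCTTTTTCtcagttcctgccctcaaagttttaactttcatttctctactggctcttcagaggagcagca
Trim12a (chr7:104315466-104315565, minus strand): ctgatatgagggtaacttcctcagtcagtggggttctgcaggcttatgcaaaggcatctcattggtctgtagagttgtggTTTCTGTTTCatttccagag
Trim12c (chr7:104353320-104353419, minus strand): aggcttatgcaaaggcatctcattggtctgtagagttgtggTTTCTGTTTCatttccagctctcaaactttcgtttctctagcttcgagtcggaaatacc
Trim34a (chr7:104244387-104244486, plus strand): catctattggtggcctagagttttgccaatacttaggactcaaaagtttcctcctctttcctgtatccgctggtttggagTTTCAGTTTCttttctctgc
Trim21 (chr7:102565453-102565552, minus strand): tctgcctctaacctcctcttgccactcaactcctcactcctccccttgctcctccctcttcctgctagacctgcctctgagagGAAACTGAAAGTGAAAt
Trim26 (chr17:36836966-36837065, plus strand): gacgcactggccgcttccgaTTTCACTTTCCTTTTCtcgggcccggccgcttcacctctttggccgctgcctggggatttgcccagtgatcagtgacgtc
Trim30b (chr7:104358617-104358716, minus strand): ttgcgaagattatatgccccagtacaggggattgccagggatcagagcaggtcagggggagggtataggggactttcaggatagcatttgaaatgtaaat

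The cores of the cluster genes lay close to the start. They began 41 bases before it in Trim30d, 29 before it in Trim12c, and at base 11 after it in both Trim12a and Trim34a. Trim30a has 2 annotated starts, and the core began 36 bases before the one shown and at base 3 after the other. Trim21 held 2 overlapping matches, at bases 14 and 20 after the start. Trim26 also held 2 that overlap, 160 and 154 bases before it. The Trim30a and Trim30d windows shared an unbroken run of 118 identical bases, and those of Trim12a and Trim12c one of 71, so these matches are not independent of each other. Trim25, Trim30b and Trim56 held no match in the window, Trim14 had no window, and Trim2 was the 1 other tested gene with a match. The second motif searched, TTCNNNGAA, the core of the gamma-activated sequence, was in none of the 10 interferon-responsive genes, in 3 of 25 others (Trim31, Trim45 and Trim46) and in 9.55% of all genes with a window. The 2 motifs do not overlap in any of these windows. A match is a description of the letters and not a binding site.

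**Figure D1:**
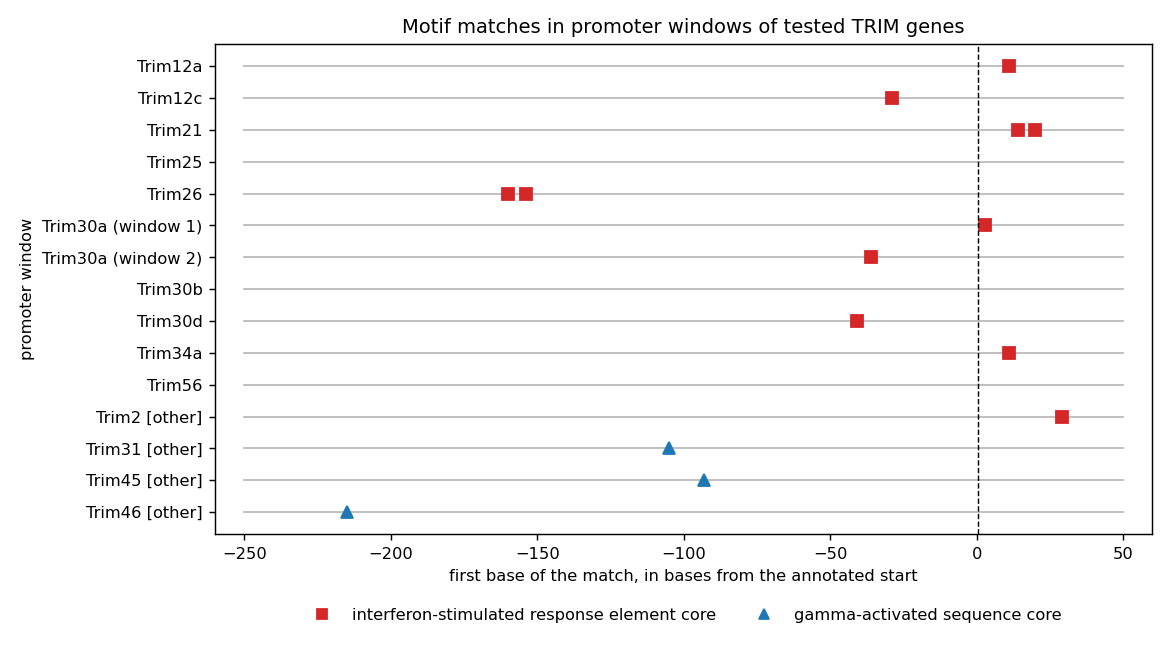
Positions of the 2 motif cores (squares and triangles, first base of each match) in promoter windows of tested TRIM genes, with the annotated start as a dashed line and 1 line a window; other genes are drawn only where they hold a match. Squares fall on 7 of the 10 interferon-responsive genes, near the start in all of them except Trim26, and on Trim2 alone among the other genes.

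Levels are given as the log2 of the scanner's processed intensity minus the 75th percentile of its array, and a difference of 1 is a 2-fold difference. A gene is represented by its probe of highest mean signal, and it was tested if the scanner software marked that probe as well above background on 4 or more arrays. This held for 45 genes, all 11 interferon-responsive genes and 34 of the others, and 33 of the 45 were well above background on all 12 arrays, the 11 interferon-responsive genes among them. The 11 genes not tested were Trim9, Trim10 and Trim50, which were well above background on 3 arrays each, Trim59 on 2 arrays, Trim36 on 1 array, and Trim15, Trim29, Trim42, Trim52, Trim61 and Trim80 on none. Trim10, an erythroid gene, and Trim29 and Trim42 have their known expression outside the hepatocyte. No TRIM probe was saturated on any array.

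Across the array, 26593 of 41174 probes were tested, and none differed between any 2 groups at an adjusted p under 0.05 (limma). The targeted gene, Nr3c1, has 4 probes, and their levels overlapped between all 3 groups. All groups carry the knockout, and which of these probes lie in the deleted part is not known here, so this checks nothing. All 6 hepatocyte markers were well above background on all 12 arrays. AAV-GFP replicate 3 stood apart from its group: it was the highest AAV-GFP array for 7 of the 11 interferon-responsive and 19 of the 34 other TRIM genes. The counts for each comparison below are also given without it.

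The interferon-responsive TRIM genes stood higher in the livers given hGRB than in those given GFP, by values that did not pass the adjusted test, and the other TRIM genes showed no common direction. All 11 interferon-responsive genes had a positive difference, with a median of 0.66 (1.58-fold), against a median of -0.05 over all tested probes, of which 43.5% were positive. Among the 34 other genes 14 were positive and 20 negative, with a median of -0.07. None of the 45 genes passed the adjusted threshold, and neither did any other probe (0.0%). At an unadjusted p under 0.05, 6 of the 11 stood higher (Trim30a, Trim30d, Trim34a, Trim12c, Trim56 and Trim12a) where 1.84% of all tested probes did, and none of the 11 stood lower where 1.51% did. The 4 AAV-hGRB values lay above all 4 AAV-GFP values in 4 of the 11 genes, Trim30a, Trim30d, Trim12c and Trim34a, against 1.05% of all tested probes. No TRIM gene lay wholly below, against 1.94%. None of the 34 other genes had an unadjusted p under 0.05 or groups without overlap.

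**Figure D2:**
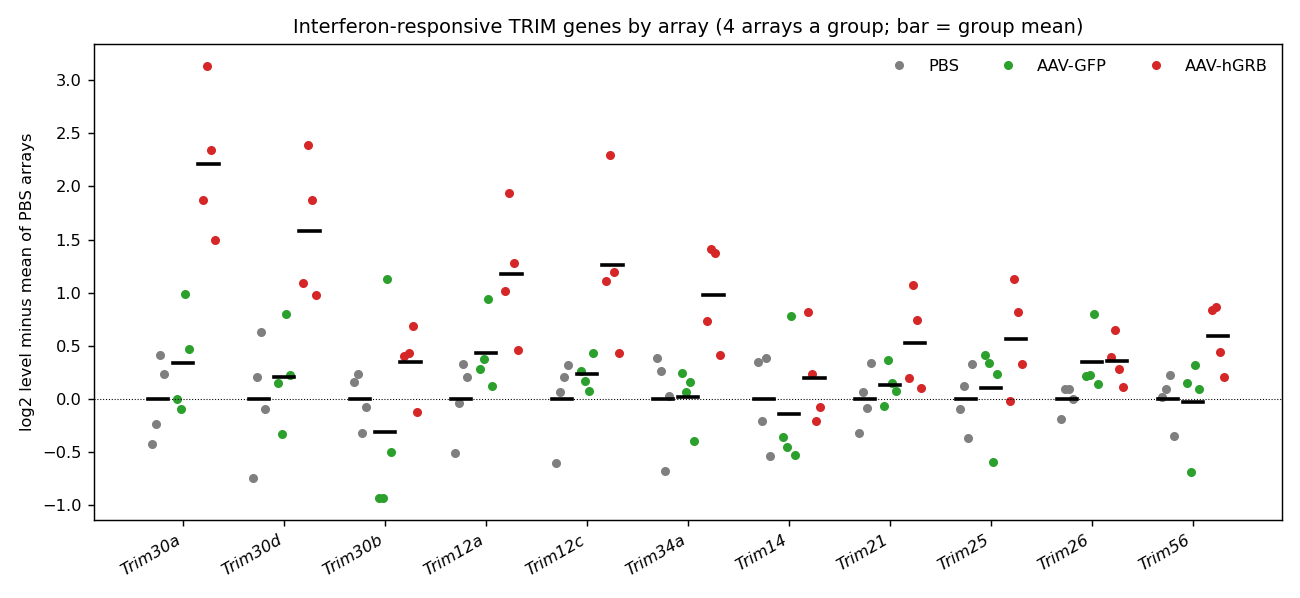
Level of each interferon-responsive TRIM gene on each array, as log2 minus the mean of the 4 PBS arrays of that gene; points are arrays, coloured by group, and bars are group means. For Trim30a, Trim30d, Trim12c and Trim34a all 4 AAV-hGRB points lie above the 8 other points, while for Trim14 and Trim26 the AAV-hGRB and AAV-GFP points are mixed.

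Of the 45 genes, the 6 with the largest differences between the vector groups, from 0.66 to 1.87, all lie in the cluster of SPRY genes on chromosome 7. Its probes, from Trim6 to Trim30d, span 244.2 kb of the build mm7 (chr7:100284537-100528739) on which the array's design gives positions. The exons or untranslated regions that the probes hit were not annotated here. RefSeq's order of the genes is Trim6, Trim34a, Trim5, Trim12a, Trim34b, Trim12c, Trim30b, Trim30c, Trim30a and Trim30d. Over the 7 cluster genes measured, the median difference of AAV-hGRB from AAV-GFP was 0.96 (1.95-fold), and 6 of the 7 were positive.

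Trim30a encodes an interferon-induced protein that restrains NF-κB signalling downstream of Toll-like receptors. Its level was -1.41, -1.21, -0.57 and -0.75 on the PBS arrays, -0.98, -1.08, 0.00 and -0.51 on the AAV-GFP arrays and 0.89, 2.15, 1.36 and 0.51 on the AAV-hGRB arrays. The lowest AAV-hGRB array was thus above every array of the other groups, and the PBS and AAV-GFP arrays overlapped. The difference of AAV-hGRB from AAV-GFP was 1.87 ± 0.36 (SE), or 3.65-fold, with an adjusted p of 0.508 (limma). AAV-GFP and PBS differed by 0.34 ± 0.36. This probe covers positions 100468045 to 100468622, and a second Trim30a probe at 100465453 to 100465512 gave 1.37 ± 0.43. On the second probe the AAV-GFP values were -2.77, -1.86, -0.94 and -2.07 and the AAV-hGRB values -1.10, -0.15, 0.39 and -1.30. AAV-GFP replicate 3 there lay above 2 of the AAV-hGRB arrays, so the groups overlapped.

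Trim30d, a close relative of Trim30a at the far end of the cluster, followed the same order of groups. It measured -2.60, -1.65, -1.23 and -1.95 with PBS, -1.71, -2.19, -1.06 and -1.63 with AAV-GFP, and -0.77, 0.53, 0.01 and -0.88 with AAV-hGRB. Every AAV-hGRB array was above every other array, and the difference from AAV-GFP was 1.37 ± 0.38 (2.59-fold, adjusted p 0.998, limma). Trim30b, the third member of this subfamily on the array, differed less from AAV-GFP, by 0.66 ± 0.40. Its AAV-hGRB values were -3.13, -3.10, -2.85 and -3.65, its AAV-GFP values -4.46, -4.47, -2.41 and -4.03 and its PBS values -3.38, -3.30, -3.85 and -3.61. AAV-GFP replicate 3 was the highest of the 12 Trim30b arrays and the other 3 AAV-GFP arrays were the lowest, so that the AAV-hGRB and AAV-GFP groups overlapped through that array alone. Without it the difference from AAV-GFP was 1.14, with an unadjusted p under 0.05. From PBS, Trim30b differed by 0.35 ± 0.40 in AAV-hGRB, with a 95% interval of -0.52 to 1.22.

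Trim12a and Trim12c are among the mouse relatives of primate TRIM5, which binds incoming retroviral capsids. For Trim12c the PBS arrays read -2.41, -1.74, -1.60 and -1.49, the AAV-GFP arrays -1.54, -1.64, -1.73 and -1.38, and the AAV-hGRB arrays -0.70, 0.48, -0.62 and -1.37. The groups did not overlap, but the lowest AAV-hGRB array, replicate 4, and the highest AAV-GFP array, also replicate 4, nearly met. The difference was 1.02 ± 0.34 (2.03-fold). Trim12a stood at 1.43, 1.90, 2.27 and 2.15 with PBS, 2.23, 2.31, 2.88 and 2.06 with AAV-GFP and 2.96, 3.88, 3.22 and 2.40 with AAV-hGRB. Here AAV-hGRB overlapped AAV-GFP, since replicate 4 of the first was below replicate 3 of the second, and lay wholly above PBS. The differences were 0.74 ± 0.32 from AAV-GFP and 1.18 ± 0.32 from PBS. The second Trim12a probe gave 1.07 ± 0.30 and 1.43 for the same comparisons. The array calls the first of these probes Trim12, an older symbol, and the 2 genes are near copies, so each of these readings may hold signal of both.

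Trim34a was read by 3 probes that did not give 1 value. The probe of highest mean signal, at 100393102 to 100393161, gave -1.94, -2.06, -3.00 and -2.29 with PBS, -2.07, -2.26, -2.16 and -2.72 with AAV-GFP, and -1.59, -0.91, -0.94 and -1.91 with AAV-hGRB. The AAV-hGRB arrays were again above all others, with a difference of 0.96 ± 0.30 from AAV-GFP. The probe at 100304012 to 100304071 differed by 0.22 ± 0.40, and its groups overlapped. The last probe, whose ends are placed at 100306007 and 100391705, differed by 1.06 ± 0.54 and was well above background on 9 arrays. The first probe lies between those of Trim12a and Trim12c, which is where RefSeq places Trim34b, and the second lies between those of Trim6 and Trim12a, where it places Trim34a. Which of the 2 near copies each probe reads is therefore uncertain, and the difference between the probes was not tested.

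Trim6, at the near end of the cluster, is not on the interferon-responsive list. Its probe of highest mean signal differed by -0.08 ± 0.39 between AAV-hGRB and AAV-GFP, while a second probe, well above background on 5 arrays, differed by 0.91 ± 0.27. Within the span of the cluster the array also carries 5 probes that were not matched to a TRIM name, of which 4 were tested. Their differences from AAV-GFP, looked up after the values of the TRIM probes were seen, were 0.95 ± 0.33 for LOC667823, 0.59 ± 0.53 for TC1485374, 1.09 ± 0.52 for AK034318 and 1.18 ± 0.37 for AI451617. All 4 were thus positive, and only for AI451617, whose probe lies beside that of Trim30d, did the AAV-hGRB arrays lie wholly above the AAV-GFP arrays. The LOC667823 probe lies between probes of Trim34a and Trim12a, where RefSeq places Trim5. Whether any of the 4 reads a TRIM gene under another name was not checked. The TRIM genes of chromosome 7 outside the cluster (Trim28, Trim21, Trim68, Trim3 and Trim66) differed by -0.39 to 0.40.

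**Figure D3:**
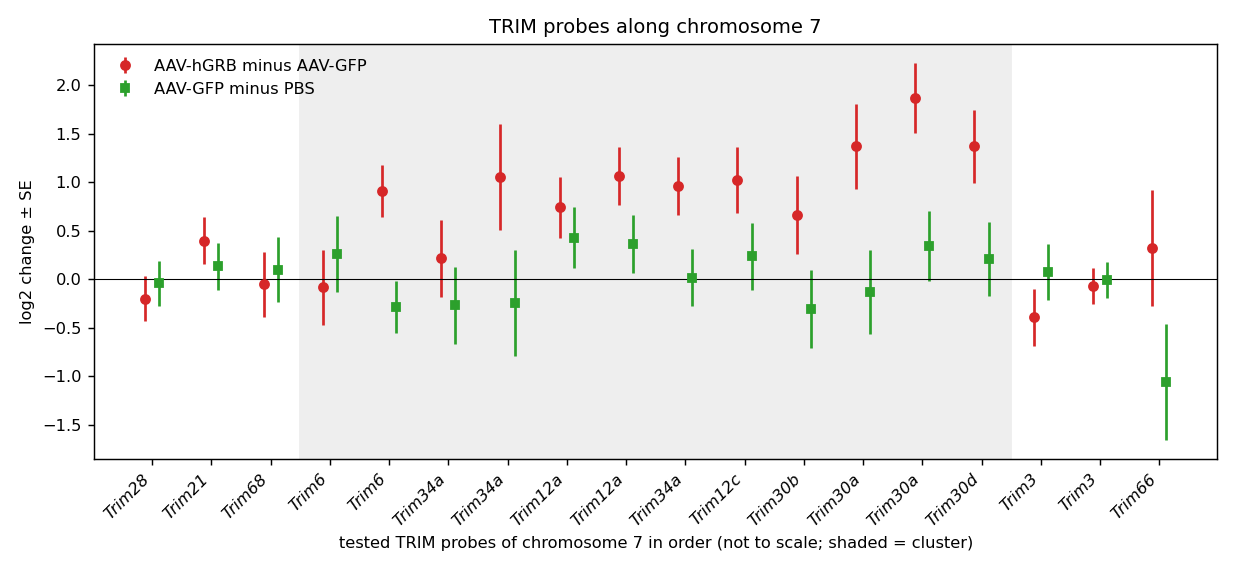
Log2 difference with its SE for each tested TRIM probe of chromosome 7, in order along the chromosome and not to scale, for AAV-hGRB minus AAV-GFP (circles) and AAV-GFP minus PBS (squares); the cluster is shaded. The 12 cluster probes range from -0.08 to 1.87 in the first comparison, and the 2 lowest are 1 probe each of Trim6 and Trim34a.

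The interferon-responsive genes outside the cluster act in the sensing of nucleic acids and antibody-coated virus. They differed less, by 0.01 to 0.62, and none had groups without overlap between AAV-hGRB and AAV-GFP. Trim56, a ubiquitin ligase with a role in STING and Toll-like receptor signalling, measured 1.07, 1.14, 1.28 and 0.70 with PBS, 1.20, 0.36, 1.37 and 1.14 with AAV-GFP and 1.88, 1.92, 1.49 and 1.25 with AAV-hGRB. AAV-hGRB replicate 4 fell within the AAV-GFP range and the other 3 above it, and the difference was 0.62 ± 0.26 (1.54-fold). It was 0.40 without AAV-GFP replicate 2, and the unadjusted p was then above 0.05. Trim25, the ubiquitin ligase that activates the RNA sensor RIG-I, measured 3.27, 3.48, 3.00 and 3.70 with PBS, 3.78, 3.70, 2.77 and 3.60 with AAV-GFP and 3.34, 4.49, 4.18 and 3.69 with AAV-hGRB. AAV-hGRB replicates 2 and 3 were the highest of the 12 arrays, and the other 2 lay among the AAV-GFP arrays. The difference was 0.46 ± 0.30, and a second Trim25 probe gave 0.32 ± 0.21.

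Trim21 is the cytosolic antibody receptor. It stood at -1.47, -1.09, -1.24 and -0.82 with PBS, -1.22, -0.79, -1.01 and -1.09 with AAV-GFP and -0.96, -0.08, -0.41 and -1.05 with AAV-hGRB, a difference of 0.40 ± 0.24 from AAV-GFP. As for Trim25, AAV-hGRB replicates 2 and 3 were the highest and the other 2 lay within the AAV-GFP range. Trim14, a mitochondrial adaptor that has lost its RING finger, gave -0.92, -1.47, -0.89 and -1.80 with PBS, -1.63, -1.72, -0.49 and -1.80 with AAV-GFP and -0.45, -1.03, -1.47 and -1.34 with AAV-hGRB. Its difference of 0.33 ± 0.34 was no larger than its error, and AAV-GFP replicate 3 was more than 1 unit above the rest of its group. Without that array the difference was 0.64, with an unadjusted p under 0.05.

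Trim26, a gene of the major histocompatibility region on chromosome 17, did not follow the others. Its values were 2.86, 3.14, 3.14 and 3.04 with PBS, 3.27, 3.27, 3.85 and 3.19 with AAV-GFP, and 3.45, 3.69, 3.33 and 3.16 with AAV-hGRB. Both vector groups lay wholly above PBS, by 0.35 ± 0.20 for AAV-GFP and 0.36 ± 0.20 for AAV-hGRB, and between them the difference was 0.01 ± 0.20. The 95% interval of that difference, -0.42 to 0.45, still allows a difference of either sign, and its sign turned with normexp, with the slide as a block and when any of 5 single arrays was left out. The 2 other Trim26 probes gave -0.01 ± 0.16 and 0.35 ± 0.27 between the vector groups.

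The AAV-GFP group was set against PBS to see how the family stood with a vector that carries no hGRB. In AAV-GFP against PBS, 8 of the 11 interferon-responsive genes were positive, with a median of 0.13, beside a median of 0.00 over all tested probes. Of the 34 others, 20 were positive, with a median of 0.08. No probe of the array was called (0.0%). No TRIM gene had an unadjusted p under 0.05, where 0.793% of all tested probes stood higher and 0.891% lower at that level. Trim26 was the 1 TRIM gene whose AAV-GFP arrays lay wholly above PBS, where 0.583% of all tested probes did, and none lay wholly below, where 0.357% did. The cluster gene with the largest difference was Trim12a, at 0.43 ± 0.32. These counts moved without AAV-GFP replicate 3: 7 of the 11 interferon-responsive genes were then positive, with a median of 0.13, and 13 of the 34 others, with a median of -0.08. Trim30b then stood lower than PBS, by -0.78 in place of -0.31, with an unadjusted p under 0.05 that 1.79% of all tested probes then had in that direction. No other TRIM gene had one.

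Against PBS, which shares the AAV-hGRB arrays with the comparison above and so is not separate evidence, all 11 interferon-responsive genes were again positive in AAV-hGRB, with a median of 0.59 (1.51-fold). That count takes 1 probe a gene, and the Trim34a probe at 100304012 to 100304071 differed from PBS by -0.05. The median over all tested probes was -0.06, and no probe was called (0.0%). An unadjusted p under 0.05 was found for 6 of the 11 in the direction of higher, against 2.86% of all tested probes, and for Trim46 alone among the 34 others in the direction of lower, against 2.98%. In 6 of the 11, Trim30a, Trim30d, Trim12a, Trim12c, Trim34a and Trim26, the AAV-hGRB arrays lay wholly above PBS, against 2.14% of all tested probes, and in no TRIM gene wholly below, against 2.45%. Trim30a differed by 2.21 ± 0.36 (4.63-fold, adjusted p 0.174, limma), Trim30d by 1.58 ± 0.38 and Trim12c by 1.26 ± 0.34. With AAV-GFP replicate 3 left out of the fit, which then estimates the spread without it, 8 of the 11 stood higher than PBS at an unadjusted p under 0.05, against 4.2% of all tested probes. Of the 34 others, 1 then stood higher (Trim37, whose 2 tested probes differ in sign) and 1 lower (Trim46).

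**Figure D4:**
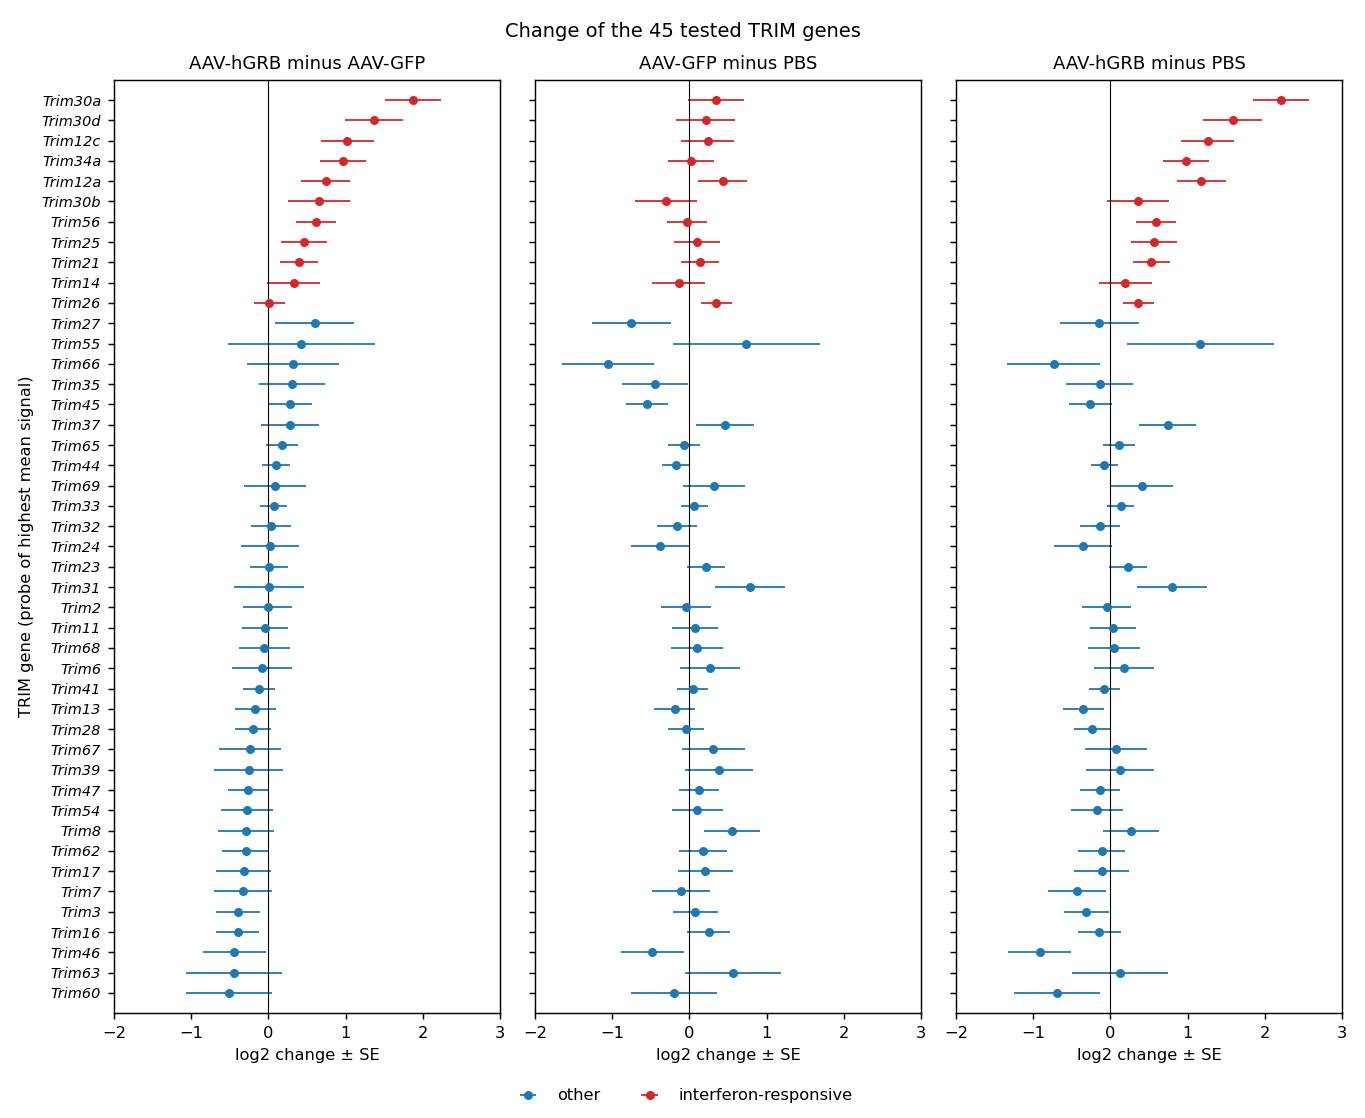
Log2 difference with its SE of the 45 tested TRIM genes in the 3 comparisons, interferon-responsive genes in red and other genes in blue, each list in the order of AAV-hGRB minus AAV-GFP. In the left and right panels all 11 red points are above 0, with medians of 0.66 and 0.59, and in the middle panel 8 of 11 are, with a median of 0.13.

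Within the AAV-hGRB group the interferon-responsive genes tended to rank the arrays alike. AAV-hGRB replicate 2 was the highest array of its group in 9 of the 11 genes, and replicate 4 the lowest in 9 of the 11. Taking each gene relative to its PBS mean, the median over the 11 genes was 0.82, 1.13, 0.82 and 0.33 on AAV-hGRB replicates 1 to 4, 0.16, 0.06, 0.78 and 0.12 on the AAV-GFP arrays, and -0.19, 0.09, 0.21 and 0.03 on the PBS arrays. AAV-GFP replicate 3 thus lay between AAV-hGRB replicate 4 and the other AAV-hGRB arrays, and the remaining 7 control arrays lay below all 4 AAV-hGRB arrays. For the 34 other genes the same median ran from -0.26 to 0.01 on the AAV-hGRB arrays, from -0.24 to 0.40 on the AAV-GFP arrays and from -0.20 to 0.13 on the PBS arrays, so the groups overlapped, and AAV-GFP replicate 3 was again the highest of its group. Without that array, 11 of the 11 interferon-responsive genes still had a positive difference between the vector groups, with a median of 0.91, and 8 had an unadjusted p under 0.05, where 4.24% of all tested probes then did. Of the 34 others 18 were then positive, with a median of 0.02 in place of -0.07, and 1 had an unadjusted p under 0.05 in the direction of higher. Without AAV-hGRB replicate 2, 10 of the 11 were positive, with a median of 0.53, and 4 had an unadjusted p under 0.05, where 1.38% of all tested probes then did.

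**Figure D5:**
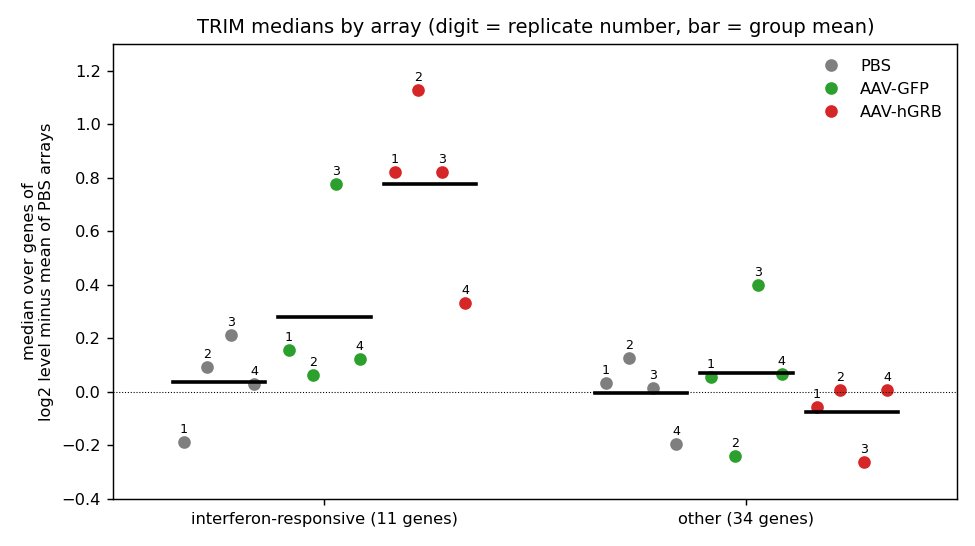
Median over the 11 interferon-responsive and over the 34 other TRIM genes on each array, as log2 level minus the PBS mean of each gene; points are arrays, digits are replicate numbers and bars are group means. On the left the AAV-hGRB arrays run from 0.33 to 1.13 and AAV-GFP replicate 3 lies among them at 0.78; on the right the 3 groups overlap.

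The groups were not spread evenly over the slides. AAV-hGRB replicates 2 and 4 share slide 3, which holds no array of another group, so group and slide cannot be told apart there. AAV-GFP replicate 4 is alone on slide 4 and is the only array of scan day 2. Slides 5 and 6 each hold 1 array of every group, so the differences were also taken within them. Slide 5 gave a median of 0.95 over the interferon-responsive genes for AAV-hGRB minus AAV-GFP, with 9 of 11 positive, and slide 6, which holds AAV-GFP replicate 3, gave 0.59, with 8 of 11 positive. Each of these rests on 1 array a group. With the slide as a block, 10 of the 11 were positive with a median of 0.69, and 2 had an unadjusted p under 0.05 where 1.37% of all tested probes did. With another background correction (normexp), 10 of the 11 were positive with a median of 0.47, and 3 had an unadjusted p under 0.05 where 0.692% did.

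Markers of other cell types differed as well, in both directions, and none passed the adjusted threshold. Of the 6 tested markers of T and NK cells, 5 had a positive difference from AAV-GFP, with a median of 0.62. The log2 of their summed intensity, on the same scale, ran from 2.15 to 3.74 on the AAV-hGRB arrays, 1.69 to 2.59 on the AAV-GFP arrays and 1.28 to 2.52 on the PBS arrays. The probe of Ccl5, a chemokine gene that can be induced in other cells too, gave most of that signal, at 1.61 to 3.41 on the AAV-hGRB arrays. Cd3e and Klrb1c differed by 0.02 ± 0.30 and -0.16 ± 0.29, while Cd3g differed by 0.53 ± 0.24, Nkg7 by 0.70 ± 0.34 and Gzma by 1.52 ± 0.65. For Cd3g the AAV-hGRB arrays lay wholly above the AAV-GFP arrays. Cd8a was not tested, since it was well above background on 3 arrays, all of them AAV-hGRB. All 7 markers of Kupffer cells and macrophages had a positive difference, with a median of 0.28 and sums of 6.62 to 7.66, 6.38 to 7.41 and 5.28 to 7.25. Of the endothelial markers, 4 of 5 were positive, with a median of 0.32 and sums of 3.38 to 3.79, 3.09 to 3.41 and 3.16 to 3.51. For Lyve1 (0.72 ± 0.22) and Kdr (0.53 ± 0.19) the AAV-hGRB arrays lay wholly above the AAV-GFP arrays. For both genes they overlapped PBS, with differences of 0.22 ± 0.22 and 0.38 ± 0.19. The 3 tested erythroid markers were all negative, with a median of -0.55 and sums of 4.65 to 5.24, 5.19 to 5.74 and 5.04 to 5.53. Of the 4 tested neutrophil markers, S100a8 and S100a9 differed by 0.88 ± 0.35 and 0.86 ± 0.39, and the other 2 were negative. For S100a8 and S100a9 the AAV-GFP arrays lay wholly below PBS, by -1.30 ± 0.35 and -1.26 ± 0.39. Against PBS all 4 were negative in AAV-hGRB, S100a8 by -0.41 ± 0.35, S100a9 by -0.40 ± 0.39, Mpo by -1.11 ± 0.31 and Ltf by -0.34 ± 0.76. Of the 6 hepatocyte markers 2 were positive, with a median of -0.14, and Tat, which glucocorticoids induce, lay wholly below AAV-GFP by -0.75 ± 0.23. The Alb probe, 1 of the 6, was saturated on 9 of the 12 arrays, which limits its difference. Of the 5 B cell markers 3 were positive, with a median of 0.33. Cd22 (0.87 ± 0.23) lay wholly above AAV-GFP and differed from PBS by 0.33 ± 0.23. Of the 5 bile duct markers 2 were positive, with a median of -0.27. The 3 tested skeletal muscle markers were all negative, with a median of -0.27 and sums of -1.74 to -1.14, -1.30 to -1.09 and -1.20 to 1.67. Against PBS their median was -1.16. The highest sums were those of PBS replicates 1 and 2, at 1.67 and -0.36. These are also the PBS arrays that lay above all AAV-hGRB arrays for Trim46, as given below, and a link was not tested. The defining marker of plasmacytoid dendritic cells, Siglech, was not well above background on any array. In bulk liver, more cells of a type and more RNA per cell cannot be told apart, and the part of other cell types in the TRIM differences was not tested.

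The 4 corepressors of the family carry a PHD finger and a bromodomain, and between AAV-hGRB and AAV-GFP they differed by -0.20 to 0.32. Their differences from PBS reached further, to -1.06 for Trim66 in AAV-GFP and -0.74 in AAV-hGRB, with no unadjusted p under 0.05. Trim28, known as KAP1, silences retroelements through KRAB zinc finger proteins. It measured 2.32, 2.28, 2.05 and 2.10 with PBS, 2.37, 2.28, 1.58 and 2.37 with AAV-GFP and 1.58, 1.82, 2.06 and 2.34 with AAV-hGRB. The 3 groups overlapped, with a difference of -0.20 ± 0.23 between the vector groups and a 95% interval of -0.70 to 0.30. AAV-GFP replicate 3 was the lowest of its group, and without it the difference was -0.39. Trim33, which acts with SMAD4, was among the steadiest, at 1.69, 1.75, 1.63 and 1.59 with PBS, 1.63, 1.84, 1.44 and 2.00 with AAV-GFP and 1.59, 1.89, 1.88 and 1.82 with AAV-hGRB. Its SD over the 12 arrays, 0.16, was the smallest of the 45 genes, and its difference between the vector groups was 0.07 ± 0.17, with an interval of -0.31 to 0.45.

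Trim24, a corepressor of the retinoic acid receptor, gave 3.67, 1.82, 2.62 and 1.97 with PBS, 1.79, 2.36, 2.64 and 1.76 with AAV-GFP and 2.43, 2.10, 2.35 and 1.77 with AAV-hGRB. PBS replicate 1 was the highest of the 12 by over 1 unit, and the vector groups differed by 0.03 ± 0.38. Of the partners of these corepressors, the histone methyltransferase Setdb1, the heterochromatin proteins Cbx1, Cbx3 and Cbx5, Smad4 and Smarcad1 were tested, and their differences between the vector groups ranged from -0.32 to 0.16, with 1 of 6 positive. The retinoic acid receptor gene Rara was well above background on 2 arrays and was not tested.

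Among the remaining members the lowest unadjusted p in AAV-hGRB against AAV-GFP belonged to Trim16, which marks damaged lysosomes for autophagy, at -0.39 ± 0.28. It was followed by Trim3, an NHL-repeat protein of nerve cells, at -0.39 ± 0.29, Trim27 at 0.60 ± 0.51 and Trim46, which bundles microtubules in axons, at -0.44 ± 0.40. None of these differences was larger than the spread between arrays, and the sign of Trim16 turned with normexp. Trim27 rested on AAV-GFP replicate 3, which read -4.00 against -1.98, -1.78 and -1.68 on the other AAV-GFP arrays, while the AAV-hGRB arrays read -2.37, -2.12, -1.05 and -1.49. Without that array it differed by 0.06. For Trim46 the PBS arrays read -0.09, -0.53, -1.73 and -1.85 and the AAV-hGRB arrays -2.01, -1.94, -2.20 and -1.72, a difference of -0.92 ± 0.40 (adjusted p 0.842, limma). PBS replicates 1 and 2 were above all 4 AAV-hGRB arrays, and the other 2 lay within the AAV-hGRB range.

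In AAV-GFP against PBS the others of lowest p were Trim45 (-0.55 ± 0.27), Trim66 (-1.06 ± 0.60), Trim31 (0.78 ± 0.45), a ligase of the mitochondrial antiviral adaptor MAVS, and Trim8 (0.55 ± 0.36), a regulator of cytokine signalling. Trim66, the fourth corepressor, was well above background on 4 arrays and Trim31 on 7. In AAV-hGRB against PBS they were Trim46, Trim37 (0.74 ± 0.37), a ligase of the centrosome and peroxisome, Trim31 (0.79 ± 0.45) and Trim13 (-0.35 ± 0.27), a ligase anchored in the endoplasmic reticulum. All of these had adjusted p of 0.842 or more (limma). The second tested Trim37 probe went the other way, by -0.20 from PBS in AAV-hGRB and -0.28 in AAV-GFP. Of the 34 others, 32 differed by less than 0.5 between AAV-hGRB and AAV-GFP, as did 86.5% of all tested probes. Over the 12 arrays their median SD was 0.49, against 0.62 for the interferon-responsive genes and 0.45 for all tested probes.

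Family members without a Trim name differed in both directions. Pml, the organiser of nuclear bodies and an interferon target, differed by 0.26 ± 0.22 between AAV-hGRB and AAV-GFP, and Mefv, which encodes pyrin, by 0.35 ± 0.44. The microtubule-associated ligases Mid1 and Mid2 differed by -0.30 ± 0.24 and -0.27 ± 0.19. None of the 4 passed the test, and their groups overlapped. Without AAV-GFP replicate 3, Mefv differed by 0.86 and Mid2 by -0.39, each with an unadjusted p under 0.05. Of all tested probes, 4.24% then stood higher and 3.11% lower at that p.

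The sensors and transcription factors that work with the antiviral TRIM proteins mostly stood higher, though none passed the adjusted threshold. Of the 13 tested, 11 were positive in AAV-hGRB against AAV-GFP, with a median of 0.57, and 4 had both an unadjusted p under 0.05 and no overlap: Irf7, Ddx58, Ifih1 and Irf9. Of all tested probes, 1.84% stood higher at that p and 1.05% without overlap. Irf7, the interferon-induced factor that amplifies the response, gave 0.17, 0.17, -0.30 and 0.27 with PBS, -0.27, 0.44, -0.08 and -0.08 with AAV-GFP and 1.32, 3.01, 3.73 and 1.91 with AAV-hGRB. No AAV-hGRB array reached down to the others, and the difference was 2.49 ± 0.43 (adjusted p 0.31, limma). Irf7 shares this adjusted p, the lowest of the comparison, with other probes of smaller unadjusted p. Ddx58, which encodes RIG-I, the partner of Trim25, differed by 1.39 ± 0.32, with AAV-hGRB values of 1.94, 2.78, 1.93 and 1.5 against AAV-GFP values of 0.81, 0.03, 1.18 and 0.56. Ifih1, which encodes the sensor MDA5, differed by 0.88 ± 0.29. Mavs, the adaptor of both sensors, differed by 0.00 ± 0.28, and Irf3, which is not induced by interferon, by -0.40 ± 0.24. Tmem173, which encodes STING, had no probe matched.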

How the data were processed

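Liver RNA of 12 samples (500 ng each, labelled with Cy3) was hybridised to 1-colour Agilent arrays. The deposited scanner files give each spot's linear intensity. Per the file headers, Feature Extraction 9.5.3.1 subtracted background and detrended each array, and the submitters' processing notes name version 9.5. The deposited series matrix equals these processed intensities spot by spot, so it was not used further. From the deposited intensity, log2 values were taken, spots of a probe were averaged and the array's 75th percentile was subtracted. Probes well above background on at least 4 of 12 arrays were tested in 1 fit over the 3 groups with limma 3.58.1 (R 4.3.3; lmFit and eBayes, two-sided, Benjamini-Hochberg over all 26593 tested probes). The pipeline was tested on simulated data.

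Probes were named through RefSeq accessions (GRCm38.p6 tables, used for names, gene order and promoter windows), and 25 of the 104 TRIM probes kept the array's name. Positions of probes are on mm7, per the file headers. A gene is given by its probe with the highest mean over the arrays; 19 genes have more than 1 tested probe. Named were all tested interferon-responsive genes, Trim24, Trim28 and Trim33, and in each comparison the 4 other members of lowest p. Pml, Mid1, Mid2, Mefv, Ddx58, Ifih1 and Irf7 were named as well. Trim6, Irf9, Irf3, Mavs and the cluster's probes without a TRIM name were added after their values were seen. Members and lists were chosen with earlier results of these data known. The labels do not say that each sample is a separate animal, so p-values reflect only how far these samples spread, and 4 arrays a group limit the precision. Whether replicate numbers pair the samples is not known here. Same-numbered deviations correlated between -0.43 and 0.59, and both ends came from replicate 3, whose arrays share slide 6, so this cannot settle it. Alternatives were background correction, scaling, filters, array weights, slide and replicate blocks, single slides, the probe of a gene, the groups in the fit and leaving out each array.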

Additional observations from a re-analysis of the deposited data

Results flagged for a closer look

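In 4 of the 93 groups of 4 arrays examined for an outlying value, 1 array lay far from the rest by Dixon's criterion, and chance alone marks about 1 group in 20. All 4 were AAV-GFP replicate 3. Its log2 level was -0.49 for Trim14, where the nearest AAV-GFP array read -1.63, and 3.85 for Trim26, where the nearest read 3.27. It was 1.58 for Trim28, where the nearest read 2.28, and -4.00 for Trim27, where the nearest read -1.98. The array was thus high for 2 genes and low for the other 2.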

How the results depend on the processing

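The median of the interferon-responsive genes stayed positive under every alternative run. For AAV-hGRB minus AAV-GFP it ranged from 0.53 to 0.91 when single arrays were left out and from 0.47 to 0.98 under the other alternatives, and for AAV-hGRB minus PBS it ranged from 0.50 to 0.76 when single arrays were left out and reached 0.98 within slide 6. The median of the other genes had no settled sign: for AAV-hGRB minus AAV-GFP it was -0.17 to 0.02 without single arrays, 0.08 with normexp and -0.74 within slide 6. For AAV-GFP minus PBS it was -0.08 without AAV-GFP replicate 3, -0.05 without PBS replicate 4, -0.13 with array weights and 0.38 within slide 6, and for AAV-hGRB minus PBS 0.061 with normexp, 0.39 within slide 5 and -0.32 within slide 6. Only array weights, which weigh the arrays by their fit, led to calls, and only against PBS: 67 probes, with 1 TRIM gene among them, Trim30a (adjusted p 0.0311, limma), and the second Trim12a probe at 0.0449; the cause was not tested. The difference of Ifih1 from PBS turned to -0.24 within slide 5. A fit with the replicate number as a block called 0 TRIM genes in each comparison and left the medians at 0.66, 0.13 and 0.59, so the pairing changed no call. Low signal limits Trim6, Trim31, 1 Trim34a probe and Trim66, which were near background on several arrays.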
